A study of Mus musculus with 8 samples.

Results

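The genes described here are 10 that encode sialyltransferases, other enzymes of sialic acid metabolism and the sialic acid-binding receptor CD22, out of 13245 genes in the deposited expression table. St6gal1 and Cd22 were chosen by their CPM difference between the groups, St6gal1 as lower and Cd22 as higher in CD103Tg cells, so that difference is given as a description with no test. The other 8 genes, Cmah, Cmas, St3gal1, St3gal2, St3gal4, St3gal6, St8sia4 and Neu1, were added for their function. The RNA sequenced came from lymph node CD8 T cells that carried both Ly6C and CXCR3, taken by sorting from nodes of CD103Tg mice and of C57BL/6 (B6) mice, with 4 libraries in each group. Per the labels, CD103Tg mice overexpress CD103, an integrin chain whose gene is Itgae. The promoter that drives the transgene, the age of the mice and whether replicates came from separate animals are not given in the sources used here, and the p-values therefore cover the spread among these libraries, which may be technical.

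Sialic acids are acidic sugars that cap the glycan chains of cell surface proteins and lipids. They are made in the cytosol, activated to CMP-sialic acid in the nucleus, carried into the Golgi and attached by sialyltransferases in a linkage that depends on the enzyme family: alpha 2,3 and alpha 2,6 linkages to galactose or its amino sugar, and alpha 2,8 linkages to another sialic acid. CD22, also known as Siglec-2, is an inhibitory receptor best known from B cells that binds alpha 2,6-linked sialic acid, and the mouse receptor prefers the form of sialic acid that the hydroxylase Cmah produces. In T cells, the sialylation of surface glycoproteins such as CD43, CD45 and CD8 is known to change with activation.

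Values are CPM, read counts relative to the size of the library, scaled by the authors with the TMM method. Estimated reads over the listed genes ranged from 50187279 to 56371476 per library. Itgae was at 3469 to 5509 CPM in CD103Tg libraries and at 37.5 to 174 CPM in B6 libraries. Cd247, the CD3 zeta chain gene, which was chosen after its values were seen, was at 7877 to 10164 CPM in CD103Tg libraries and at 285 to 478 CPM in B6 libraries, so effects of CD103 and of other features of the CD103Tg mice cannot be told apart. Among the genes of the sorted phenotype, Cd8b1 was at 1544 to 1861 CPM in CD103Tg and 1788 to 2098 CPM in B6 libraries, Ly6c2 at 2758 to 3313 CPM in CD103Tg and 2498 to 3115 CPM in B6, and Cxcr3 at 415 to 489 CPM in CD103Tg and 506 to 542 CPM in B6. Of 10 tested genes on the list for CD8 T cells and the sort, 0 were called higher and 3 lower (limma adjusted p under 0.05). The other 7 did not pass. Over all tested genes, 13.8% were called lower. The 3 were Cd8a, described below, Trac and Trbc2. Trac was at 616 to 688 CPM in CD103Tg and 880 to 1076 CPM in B6. Trbc2 was at 814 to 900 CPM in CD103Tg and 912 to 1159 CPM in B6. In bulk RNA, fewer cells with a transcript and less of it per cell cannot be told apart.

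Sequences at annotated starts of the 2 genes chosen for their differences are shown. They come from RefSeq (GRCm38.p6), which gave windows for 8 of the 10 genes, and span 250 bases before to 50 bases after a start, 5′ to 3′ on the strand of the gene. The first is the most upstream of 3 RefSeq windows of St6gal1 (chr16:23224490-23224789, plus strand) and the second is the only window of Cd22 (chr7:30878979-30879278, minus strand). Capitals mark matches, on either strand, to GCGTG (core of the aryl hydrocarbon receptor motif), AGGAAG (ETS), CAGCTG (E protein), TTCNNNGAA (STAT) and the interferon-stimulated response element.
St6gal1: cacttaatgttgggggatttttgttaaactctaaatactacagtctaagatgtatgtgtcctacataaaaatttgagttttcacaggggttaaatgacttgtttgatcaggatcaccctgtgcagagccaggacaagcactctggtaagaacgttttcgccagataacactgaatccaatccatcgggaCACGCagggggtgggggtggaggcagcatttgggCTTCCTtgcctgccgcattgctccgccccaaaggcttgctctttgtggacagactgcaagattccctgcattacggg
Cd22: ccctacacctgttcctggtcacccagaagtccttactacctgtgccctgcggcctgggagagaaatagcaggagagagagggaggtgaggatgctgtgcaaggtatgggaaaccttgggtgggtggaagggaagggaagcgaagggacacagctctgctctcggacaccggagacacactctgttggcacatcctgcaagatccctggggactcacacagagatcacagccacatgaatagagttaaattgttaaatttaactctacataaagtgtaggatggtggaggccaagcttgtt

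The printed St6gal1 window held 1 match to GCGTG and 1 match to AGGAAG, which did not overlap, and the Cd22 window held no match to any of the 5 motifs. Over all 32851 promoter windows of this length, 32.4% held GCGTG, 35.4% AGGAAG, 16.3% CAGCTG, 8.30% TTCNNNGAA and 3.44% the interferon-stimulated response element. A match describes letters in a window and is no evidence of binding. The other 2 windows of St6gal1 begin at bases 23225771 and 23290220 of chromosome 16. The annotated Cd22 gene reaches base 30880342 of chromosome 7, upstream of its printed window on the minus strand. A table that sums reads over each gene does not say which start was used, and the values can refer to starts not shown.

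St6gal1 encodes the Golgi enzyme that adds alpha 2,6-linked sialic acid to the galactose ends of N-glycans (GRCm38 chromosome 16, 23224740 to 23360350). It was at 18.4, 26.1, 37.1 and 69.7 CPM in CD103Tg replicates 1 to 4, against 271, 216, 236 and 247 CPM in B6 replicates 1 to 4. Every CD103Tg library lay below every B6 library. Relative to their mean, the CD103Tg libraries were far more spread than the B6 libraries, while the SDs in CPM were close. The mean was 37.8 ± 22.6 CPM in CD103Tg and 242 ± 22.7 CPM in B6 (SD, n = 4 each), a log2 fold change of -2.81 ± 0.30 (SE) on the log2(CPM + 1) scale used throughout. Within CD103Tg the highest library was 3.78 times the lowest. The SD of log2(CPM + 1) within CD103Tg was 0.80, larger than in 99.7% of the 9481 tested genes whose mean reached 5 CPM, whereas the SD within B6 was 0.13, larger than in 64.6% of them. Leaving out single libraries moved the log2 fold change between -3.16 and -2.54.

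Cd22 (chromosome 7, 30865402 to 30880342) was at 100.3, 90.6, 81.3 and 75.6 CPM in CD103Tg replicates 1 to 4, against 15.9, 14.0, 15.0 and 17.03 CPM in B6 replicates 1 to 4. All CD103Tg libraries were well above all B6 libraries, and the transcript was also measured in each B6 library, where at least 719 estimated reads supported it. The mean was 87.0 ± 10.9 CPM in CD103Tg and 15.5 ± 1.28 CPM in B6 (SD, n = 4 each), 5.62 times as high, with a log2 fold change of 2.41 ± 0.09 (SE). The 4 CD103Tg libraries were much closer to each other for Cd22 than for St6gal1, with a highest to lowest ratio of 1.33.

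**Figure D1:**
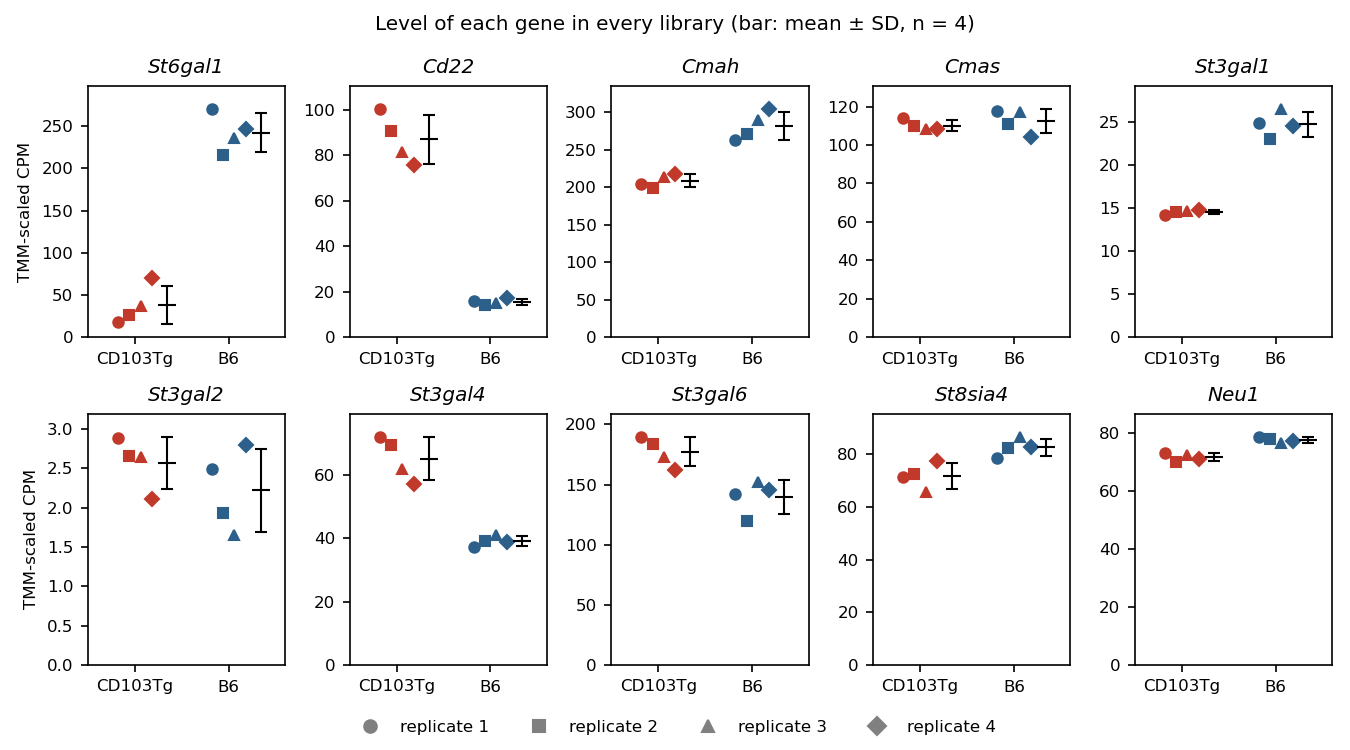
TMM-scaled CPM (y axis, from 0, own scale per panel) of the 10 genes in every library, CD103Tg in red and B6 in blue, with the mean ± SD of 4 libraries as a bar beside each group. St6gal1 was at 18.4 to 69.7 CPM in CD103Tg and 216 to 271 CPM in B6, Cd22 at 75.6 to 100.3 CPM in CD103Tg and 14.0 to 17.03 CPM in B6, and Cmas overlapped between groups.

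The 8 genes added for their function were tested within a fit across the 11503 genes whose mean reached 1 CPM (limma-trend, Benjamini-Hochberg adjusted p under 0.05). All 8 passed that filter. The alpha 2,3 sialyltransferase genes St3gal4 and St3gal6 were higher in CD103Tg, while St3gal1, Cmah and St8sia4 were lower, and Cmas, St3gal2 and Neu1 did not pass. That is 5 of 8 past the test, where 31.2% of all tested genes passed, 17.4% of them as higher and 13.8% as lower. The genes were chosen with results of these data known, so the count is a description.

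Cmas encodes the nuclear enzyme that joins sialic acid to CMP, the step before any transfer. It was at 114, 109.7, 108 and 108 CPM in CD103Tg and at 118, 111, 117 and 104 CPM in B6. The groups overlapped, and the difference on the log2 scale was -0.03 ± 0.05 (SE; limma adjusted p = 0.711) with a 95% interval of -0.15 to 0.09.

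Cmah encodes the hydroxylase that turns CMP-N-acetylneuraminic acid into the N-glycolyl form, the form bound best by mouse CD22. It was at 204, 199, 214 and 218 CPM in CD103Tg libraries and at 262, 271, 289 and 304 CPM in B6 libraries. No CD103Tg library reached the lowest B6 library. The mean was 209 ± 8.85 CPM in CD103Tg and 282 ± 18.6 CPM in B6 (SD, n = 4 each), and it fell by 0.43 on the log2 scale (SE 0.06; limma adjusted p = 0.000221).

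Among the alpha 2,3 sialyltransferases, St3gal1 acts on core 1 O-glycans, the short chains carried by CD43 and CD8. It was at 14.2, 14.5, 14.6 and 14.7 CPM in CD103Tg and at 24.9, 22.99, 26.5 and 24.6 CPM in B6. The CD103Tg libraries were almost level with each other, with a coefficient of variation of 1.59% against 5.87% in B6, and all lay below B6. The gene fell by 0.73 on the log2 scale (SE 0.07; limma adjusted p = 2.33e-05).

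St3gal4, which caps N-glycans and takes part in making selectin ligands, moved the other way. It was at 72.1, 69.3, 62.0 and 57.1 CPM in CD103Tg and at 37.1, 39.3, 40.9 and 38.9 CPM in B6. All CD103Tg libraries exceeded all B6 libraries, and the gene rose by 0.72 ± 0.08 (SE) on the log2 scale (limma adjusted p = 4.07e-05), to 1.67 times the B6 mean. The lncRNA gene 4930581F22Rik, on the other strand, shares 14.1% of the exon bases of St3gal4 and reached at most 7.98 CPM in any library.

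St3gal6, a second enzyme that sialylates galactose of lactosamine chains, was at 189.9, 183, 173 and 162 CPM in CD103Tg and at 142, 119.6, 152 and 146 CPM in B6. The lowest CD103Tg library was above the highest B6 library by a smaller margin than for St3gal4. It rose by 0.34 ± 0.08 (SE) on the log2 scale (limma adjusted p = 0.00662). Dcbld2, a gene on the opposite strand, covers 26.0% of its exon bases, and these libraries do not mark the strand. Dcbld2 itself reached at most 4.14 CPM.

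St3gal2, related to St3gal1 in its acceptors, had few reads. It was at 2.89, 2.65, 2.64 and 2.11 CPM in CD103Tg and at 2.49, 1.93, 1.65 and 2.80 CPM in B6, from 86 to 164 estimated reads per library. The groups overlapped. It differed by 0.16 ± 0.15 on the log2 scale (SE; limma adjusted p = 0.445), with a 95% interval of -0.16 to 0.48.

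St8sia4 encodes a polysialyltransferase, which builds alpha 2,8-linked chains on a few carrier proteins. It was at 71.3, 72.6, 65.6 and 77.4 CPM in CD103Tg and at 78.7, 82.3, 86.7 and 82.8 CPM in B6. The groups did not overlap but came close, and the gene fell by 0.20 on the log2 scale (SE 0.06; limma adjusted p = 0.0259). This call did not hold without CD103Tg replicate 1, 2 or 3 or without B6 replicate 2 or 3, which gave adjusted p-values of 0.0519 to 0.0837.

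Neu1 encodes the lysosomal sialidase, which removes sialic acid during glycoprotein breakdown. It was at 73.4, 70.2, 72.6 and 71.0 CPM in CD103Tg and at 78.9, 77.9, 76.8 and 77.4 CPM in B6. All CD103Tg values were slightly below all B6 values, at 0.923 times the B6 mean, yet the gene did not pass the test (log2 fold change -0.11 ± 0.05 SE; limma adjusted p = 0.0872). It passed with quantile normalization (adjusted p = 0.0377) and with equal library totals (0.0415). Groups did not overlap in 31% of all tested genes.

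**Figure D2:**
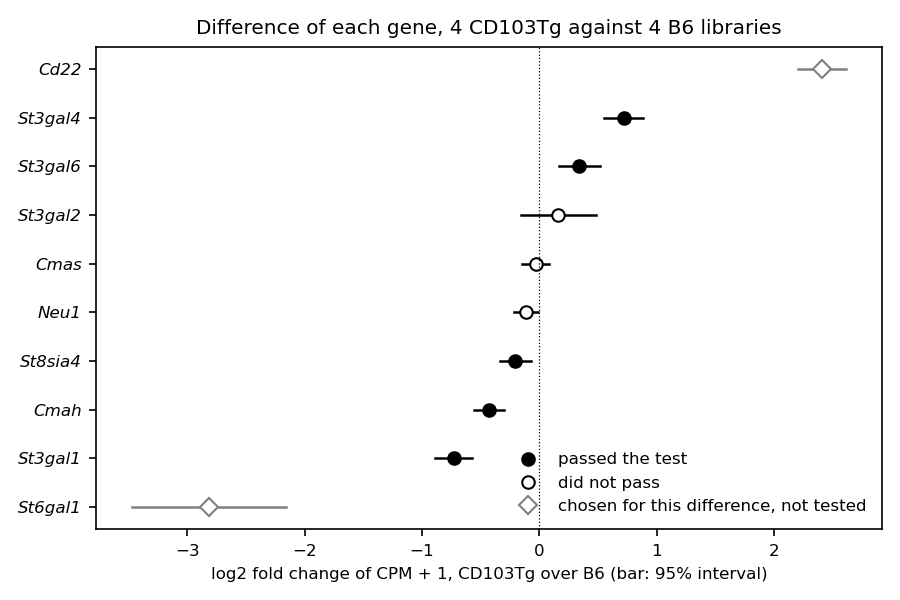
Log2 fold change of CPM + 1 (x axis, CD103Tg over B6) for the 10 genes, with 95% intervals from the fit over 4 CD103Tg and 4 B6 libraries. Filled circles passed the test, open circles did not, and diamonds are St6gal1 (-2.81) and Cd22 (2.41), which were chosen for this difference and not tested.

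Levels of different genes were compared per kilobase, first of annotated exon and then of the longest coding transcript. Per kilobase of exon, St6gal1 stood at 3.75 to 14.2 CPM per kilobase in CD103Tg and at 44.0 to 55.1 in B6. It was the highest of 13 sialyltransferase genes in B6, and the fourth in CD103Tg, after St3gal6, St6galnac4 and St3gal4. In B6 the next gene, St3gal6, was at 22.7 ± 2.31 CPM per kilobase (SD, n = 4), below every St6gal1 value. In CD103Tg, St3gal6 was at 28.7 ± 1.95, St6galnac4 at 23.1 ± 1.75 and St3gal4 at 22.3 ± 2.34 CPM per kilobase, and the last pair did not differ beyond their spread on this length. St8sia4 was at 3.57 ± 0.242 CPM per kilobase in CD103Tg and 4.11 ± 0.164 in B6, St3gal3 at 3.31 ± 0.558 in CD103Tg and 4.08 ± 0.330 in B6, and St8sia1 at 3.07 ± 0.2998 in CD103Tg and 3.26 ± 0.334 in B6 (SD, n = 4 each). St3gal1 lay below all 3 in CD103Tg. With the longest coding transcript as the length, the ranks of these 8 genes were the same but the gaps were not. St6galnac4 was then at 37.6 to 44.2 CPM per kilobase in CD103Tg, above St3gal4 at 27.3 to 34.4, and St8sia4 at 7.16 ± 0.485 in CD103Tg and 8.24 ± 0.328 in B6 stood apart from St3gal3 at 3.60 ± 0.606 in CD103Tg and 4.43 ± 0.359 in B6.

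The alpha 2,3 genes together were at 52.5 to 61.5 CPM per kilobase in CD103Tg libraries and at 40.5 to 46.8 in B6 libraries. The ratio of St6gal1 to that sum was 0.0609, 0.0904, 0.136 and 0.270 in CD103Tg replicates 1 to 4 and 1.24, 1.09, 1.026 and 1.11 in B6 replicates 1 to 4. St6gal1 thus made up 3.86% to 14.8% of the summed sialyltransferase signal in CD103Tg and 39.8% to 43.7% in B6. The sum itself was 93.6 to 97.2 CPM per kilobase in CD103Tg and 111 to 126 in B6. With the longest coding transcript as the length, the ratio was 0.0468 to 0.209 in CD103Tg and 0.797 to 0.969 in B6, so that it lay below 1 in every B6 library, and the share of St6gal1 was 2.78% to 11.1% in CD103Tg and 32.2% to 35.8% in B6. These shares follow from the choice of St6gal1 and carry no test.

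**Figure D3:**
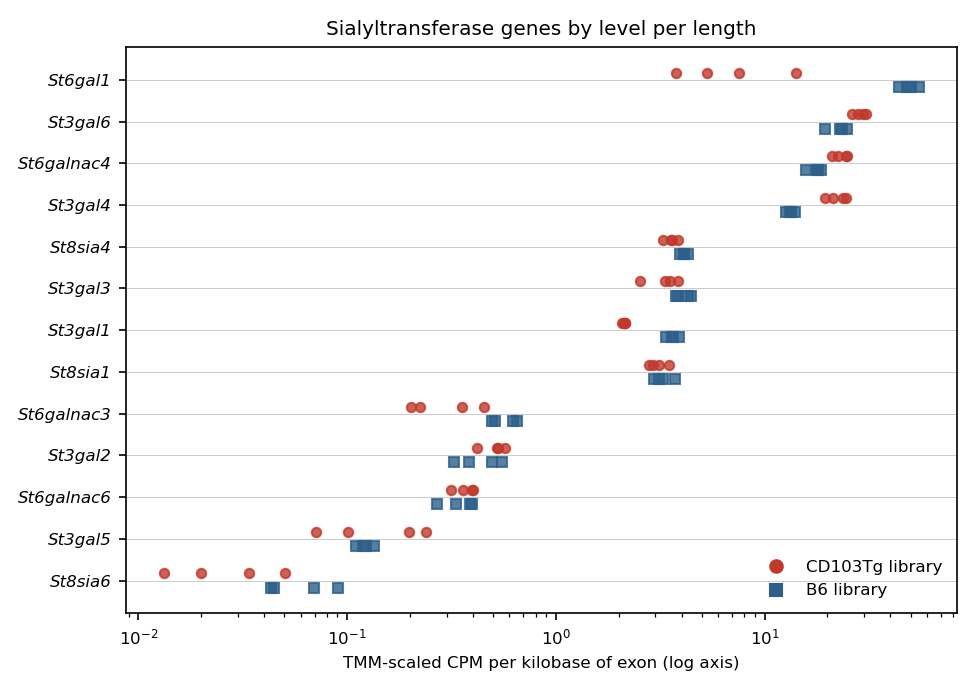
TMM-scaled CPM per kilobase of exon (log x axis) of 13 sialyltransferase genes in the 4 CD103Tg (circles) and 4 B6 libraries (squares), ordered by the B6 mean. St6gal1 was the top gene in B6 at 44.0 to 55.1 and spread over 3.75 to 14.2 in CD103Tg, below St3gal6, St6galnac4 and St3gal4.

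Cd22 is itself a B cell gene, so B cell markers are given beside it. Of 15 B cell markers analysed, from a list of 19, 9 were higher in every CD103Tg library than in any B6 library and 2 were lower in every CD103Tg library, where 31% of all tested genes did not overlap in either direction. Their summed level was 400.5 to 569.6 CPM in CD103Tg and 836 to 929 CPM in B6, most of it from Ighm. Of the defining markers, Ms4a1, which encodes CD20, was at 0.74 to 1.76 CPM in CD103Tg and 0.10 to 0.38 CPM in B6. Cd79a, the B cell receptor signalling chain, was at 1.44 to 2.18 CPM in CD103Tg and 0.48 to 0.77 CPM in B6, and Pax5 was not analysed here. Ms4a1 and Cd79a were thus higher in CD103Tg but near 0 in both groups. The 2 markers lower in every CD103Tg library were Ighm and Ighd. Ighm was at 304 to 493 CPM in CD103Tg and 763 to 852 CPM in B6. Ighd was at 3.26 to 11.3 CPM in CD103Tg and 22.0 to 40.4 CPM in B6. The light chain gene Igkc spanned 5.77 to 85.2 CPM in CD103Tg libraries and 0.22 to 2.32 CPM in B6, and Ebf1 and Spib each had 1 B6 library at 0.

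Per kilobase of exon, Cd22 was at 15.0 to 19.9 CPM in CD103Tg and 2.78 to 3.38 in B6, whereas Cd79a was at 0.99 to 1.498 in CD103Tg and 0.33 to 0.53 in B6. Within CD103Tg the B cell markers did not share 1 order. Ms4a1 and Cd79a were highest in replicate 4, which had the least Cd22, whereas Iglc2 (3.72, 1.37, 1.28 and 0.94 CPM in replicates 1 to 4) had the order of Cd22 and Ebf1 was highest in replicate 1 (2.42 CPM). Cd79b, another B cell receptor chain, was at 28.0 to 35.6 CPM in CD103Tg and at 29.9 to 34.2 CPM in B6, with no difference past the test (limma adjusted p = 0.944). The part of B cell RNA in the Cd22 difference was not tested.

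**Figure D4:**
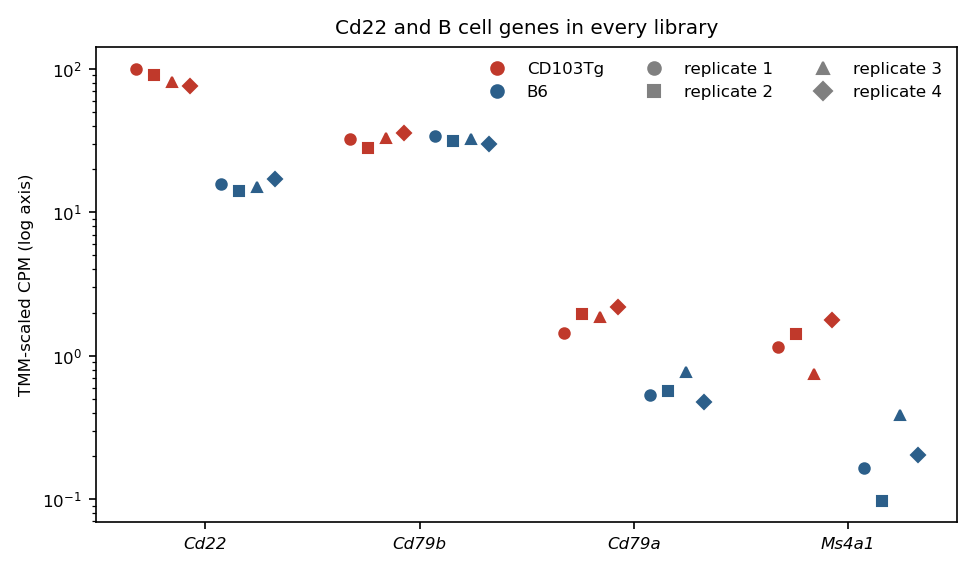
TMM-scaled CPM (log y axis) of Cd22 and 3 B cell genes in every library, CD103Tg in red to the left of B6 in blue, marker shape giving the replicate number. Cd22 was at 75.6 to 100.3 CPM in CD103Tg and 14.0 to 17.03 CPM in B6, while Ms4a1 and Cd79a did not exceed 2.18 CPM in any library.

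Other genes of the pathway were taken from 8 lists on sialic acid supply, the sialyltransferase families, removal and recycling, sialic acid-binding lectins, glycan chain building and sialylated glycoproteins. Beside the 10 genes above, the lists name 63 genes, of which 43 were analysed and 38 reached a mean of 1 CPM. Of these 38, 11 rose, 4 fell and 23 did not pass (limma adjusted p under 0.05), with a median log2 fold change of 0.02 beside -0.01 over all tested genes. Siglech, among the 11, reached 1 CPM only through the CD103Tg libraries. The shares of higher and lower calls over all genes are 17.4% and 13.8%. Without CD103Tg replicate 1, 2 or 3 the number of rises was 6, 7 and 6, and without B6 replicate 2 it was 7. In the same 4 fits, the higher calls over all tested genes were 1680, 1590, 1650 and 1726, against 2000 with all libraries.

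In sialic acid supply, Nans and Gne were higher and Nanp and Slc35a1 did not pass, beside Cmas and Cmah described above. Nans, the sialic acid phosphate synthase gene, was at 70.9 to 83.4 CPM in CD103Tg and 52.5 to 60.2 CPM in B6, and rose by 0.41 ± 0.07 (SE; limma adjusted p = 0.00093). Gne, the bifunctional enzyme that starts the route, was at 97.5 to 121 CPM in CD103Tg and 90.3 to 103 CPM in B6, with overlapping groups, rose by 0.26 ± 0.07 (SE; limma adjusted p = 0.0212), and lost its call without any one of CD103Tg replicates 1 to 3 or B6 replicates 1 to 3. Nanp was at 32.1 ± 2.09 CPM in CD103Tg and 31.5 ± 1.53 CPM in B6, and the CMP-sialic acid transporter gene Slc35a1 at 31.7 ± 1.92 CPM in CD103Tg and 34.5 ± 0.82 CPM in B6 (SD, n = 4 each), neither past the test.

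St6galnac4 and St6galnac3 passed the test. St6galnac4, which adds alpha 2,6 sialic acid to the core sugar of already sialylated O-glycans, was at 136 to 160 CPM in CD103Tg and 103 to 121 CPM in B6, and rose by 0.39 ± 0.07 (SE; limma adjusted p = 0.00126). St6galnac3, an enzyme of related specificity, was at 1.82 to 4.08 CPM in CD103Tg and 4.43 to 5.89 CPM in B6, and fell by 0.73 on the log2 scale (SE 0.19; limma adjusted p = 0.012). The alpha 2,6 family as a group therefore held changes in both directions. St3gal3 (9.17 CPM in CD103Tg, 11.3 CPM in B6), St8sia1 (28.7 CPM in CD103Tg, 30.5 CPM in B6) and St6galnac6 (1.77 CPM in CD103Tg, 1.67 CPM in B6) did not pass, and St3gal5 and St8sia6 averaged below 1 CPM.

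Of 6 other tested genes of removal and recycling, 1 rose and 1 fell. For comparison, 31.2% of the genes in the fit passed, 17.4% with a rise and 13.8% with a fall. Nagk, a kinase that salvages N-acetylglucosamine, was at 12.7 ± 1.76 CPM in CD103Tg and 9.45 ± 0.83 CPM in B6 (limma adjusted p = 0.0214). Casd1, the sialic acid O-acetyltransferase gene, was at 62.6 ± 5.24 CPM in CD103Tg and 77.5 ± 8.27 CPM in B6 (limma adjusted p = 0.0181; SD, n = 4 each). Both sets of libraries overlapped, and each call was lost in 4 of 8 fits that left out 1 library: for both genes without CD103Tg replicate 1 or 3 or B6 replicate 2, for Nagk also without B6 replicate 3, and for Casd1 also without B6 replicate 1. Ctsa, whose product stabilises the Neu1 sialidase, was at 306 to 353 CPM in CD103Tg and 287 to 345 CPM in B6 and did not pass.

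Siglech, a gene of plasmacytoid dendritic cells, was the only other gene of the lectin list analysed. It was at 3.40, 2.05, 1.77 and 0.67 CPM in CD103Tg and 0.38, 0.21, 0.27 and 0 CPM in B6, and rose by 1.21 ± 0.25 (SE) on the log2 scale (limma adjusted p = 0.00414). Its mean was 1.97 CPM in CD103Tg and 0.22 CPM in B6. It thus reached the filter of 1 CPM only through the CD103Tg libraries, and its rise is a description. Its fold change is fitted with 1 B6 library at 0 and depended on the scale, at 0.40 to 3.81 over the alternatives. Of the 4 analysed markers of plasmacytoid dendritic cells, Siglech and Ly6d were higher in every CD103Tg library. Over the genes whose mean reached 1 CPM, which that of Ly6d did not, the groups did not overlap, in either direction, in 31%. Ly6d was at 1.05 to 1.79 CPM in CD103Tg and 0.22 to 0.38 CPM in B6. The 4 markers summed to 17.02 to 27.6 CPM in CD103Tg and 12.3 to 23.3 CPM in B6, most of it from Ccr9 (11.4 to 24.9 CPM in CD103Tg and 10.96 to 21.9 CPM in B6), and their part in this difference was not tested.

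Of 17 tested genes on the list for glycan chain building, 5 rose and 1 fell. In the whole fit, 31.2% of genes passed in either direction. The list is broader than enzymes that make acceptors of sialic acid. It also holds a fucosyltransferase, a proteoglycan linker enzyme, a sugar transporter and a chaperone gene, all named below. Fut7, the fucosyltransferase of selectin ligands, was at 8.60 to 10.4 CPM in CD103Tg and 2.77 to 3.37 CPM in B6, and rose by 1.36 ± 0.10 (SE; limma adjusted p = 3.92e-06). B4galt5, a galactosyltransferase, was at 72.8 to 85.0 CPM in CD103Tg and 38.8 to 42.4 CPM in B6, and rose by 0.91 ± 0.06 (SE; limma adjusted p = 3.02e-06). Both were separated from B6 by wide gaps. Mgat1, which opens the way to complex N-glycans, rose by 0.28 ± 0.06 and the proteoglycan linker enzyme gene B4galt7 by 0.25 ± 0.05 (SE; limma adjusted p = 0.00323 and 0.00403). The UDP-galactose transporter gene Slc35a2 rose by 0.18 ± 0.06 (limma adjusted p = 0.0451), but lost that call under 10 of 20 alternatives, among them leaving out any library other than CD103Tg replicate 4.

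C1galt1, the core 1 synthase that makes the acceptor of St3gal1, was at 62.4 to 74.3 CPM in CD103Tg and 79.8 to 98.8 CPM in B6. It fell by 0.41 on the log2 scale (SE 0.07; limma adjusted p = 0.00172), while its chaperone gene C1galt1c1 was at 20.5 ± 1.70 CPM in CD103Tg and 20.2 ± 0.75 CPM in B6 (SD, n = 4 each). B4galt1 (153 CPM in CD103Tg, 167 CPM in B6), Mgat2 (199 CPM in CD103Tg, 179.8 CPM in B6), Mgat4a (60.6 CPM in CD103Tg, 53.6 CPM in B6), Man2a1, Man2a2, B3gnt2 and Fut8 did not pass.

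Of 5 sialylated glycoproteins of T cells, Selplg rose, Cd8a fell and 3 did not pass, where 31.2% of all tested genes passed in either direction. Selplg, which encodes the selectin ligand PSGL-1, was at 1632 to 1938 CPM in CD103Tg and 1474 to 1623 CPM in B6 (log2 fold change 0.23 ± 0.07 SE; limma adjusted p = 0.0246), a call lost without CD103Tg replicate 1, 2 or 3 or B6 replicate 2. Cd8a was at 944 to 1044 CPM in CD103Tg and 1150 to 1228 CPM in B6 (log2 fold change -0.24 ± 0.05 SE; limma adjusted p = 0.00602). Ptprc, encoding CD45, was at 3467 to 3770 CPM in CD103Tg and 3431 to 3818 CPM in B6, and Spn, encoding CD43, at 128 to 143 CPM in CD103Tg and 133 to 146 CPM in B6.

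**Figure D5:**
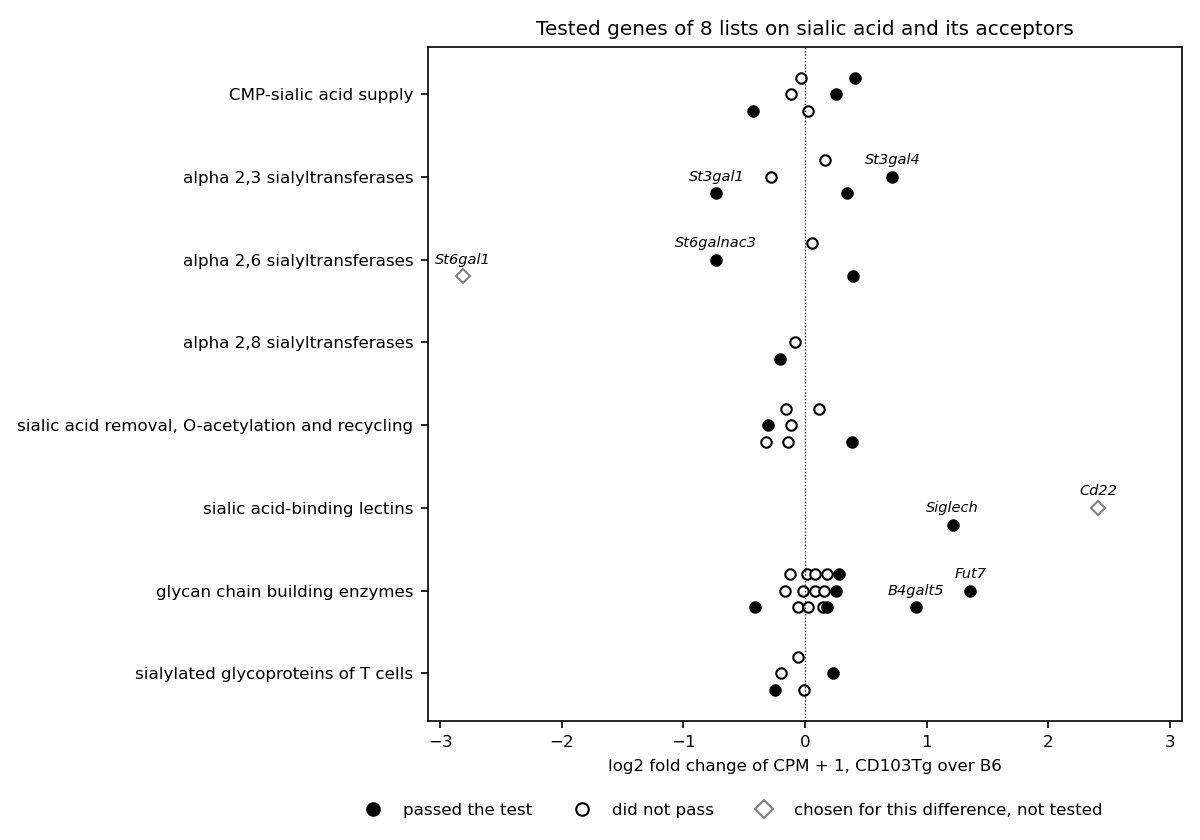
Log2 fold change of CPM + 1 (x axis, CD103Tg over B6) of the 48 tested genes of 8 pathway lists (rows), the 10 genes included. Filled circles passed the test, open circles did not, and diamonds were chosen for this difference. On this scale Fut7 was at 1.36, Siglech at 1.21 and B4galt5 at 0.91, an order that changed with the pseudocount.

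Among 8924 other annotated genes whose mean reached 5 CPM, without predicted models, pseudogenes and receptor segments, the profile over the 8 libraries nearest to that of St6gal1, by the root mean square difference of log2(CPM + 1) centred on each gene, was that of the chemokine receptor gene Cxcr5 (0.22). Atp1b1, a sodium pump subunit gene (0.26), and Id3, an inhibitor of E proteins (0.28), followed. Cxcr5 was at 7.13 to 21.2 CPM in CD103Tg and 90.7 to 105 CPM in B6. The profiles nearest to Cd22 were those of Pik3ap1, an adaptor of phosphoinositide 3-kinase (0.11), Id2, another E protein inhibitor (0.16), and Pvrig (0.17). Pik3ap1 was at 152 to 182 CPM in CD103Tg and 23.8 to 36.9 CPM in B6. The measure covers the whole profile, the difference between the groups included.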

How the data were processed

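RNA from 8 sorted samples was made into SMART-Seq v4 and Nextera XT libraries, per the labels' protocols, which do not mark strand. Per the submitters' processing notes, the tools were STAR 2.7.0f, RSEM, cutadapt 1.18 and bcl2fastq 2.17, and the builds mm10 and GRCm38. The authors deposited 1 table of a TMM-scaled CPM signal for 13245 filtered genes, whose filter no source used here describes. Values were whole hundredths of an estimated read, of which 63.0% to 65.2% per library were whole reads within 0.005, and 1 read was worth 0.0171 to 0.0203 CPM.

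Genes whose mean reached 1 CPM were tested with limma 3.58.1 (R 4.3.3, trend, two-sided), on log2(CPM + 1) and with a genotype term alone. P-values were adjusted by Benjamini-Hochberg over all tested genes. A pseudocount of 1 understates changes of low genes. A positive value is higher in CD103Tg. All gene IDs matched GENCODE M21, which gave GRCm38 positions and exon lengths. The members, gene lists and marker lists were chosen with earlier results of these data known. Named list genes are those that passed the test or averaged at least 50 CPM in a group, with some others named for completeness. The values of 1 gene of the marker lists are not reported here. The fit was tested on simulated reads drawn with the same spread setting for every gene and both groups. That does not cover genes whose spread differs between the groups, such as St6gal1. Alternatives are given in the closing section. Python 3.11.15, pandas 2.3.3 and matplotlib 3.10.9 were used.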

Additional observations from a re-analysis of the deposited data

How the results depend on the processing

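Each result was recomputed under up to 20 alternatives. These were pseudocounts of 0.1 and 5, no filter or a minimum mean of 5 CPM, 3 other scalings, robust eBayes, array weights, the replicate number as a block, limma voom on the estimated reads, leaving out each library, and leaving out both libraries numbered 4. No called pathway gene changed sign under any of them. Of the 8 enzyme genes, 6 kept their call throughout, St8sia4 and Neu1 being the exceptions given above, and of the 38 other tested pathway genes 28 did. The number of enzyme genes called, 5, ranged from 4 to 6, and the number of genes called over the table, 3592, from 2771 to 3968. Quantile normalization gave 7 other pathway genes called lower, against 4 in the reported fit. Over all tested genes, it gave 1989 called lower, against 1592, and the cause was not tested. Leaving out single libraries gave 6 to 12 of these genes called higher and 3 to 6 called lower. The log2 fold change of Cd22 was 2.16 with a pseudocount of 5, which also brought Siglech to 0.40, St6galnac3 to -0.39 and Fut7 to 0.84, while voom gave Siglech 3.81. All 3 kept their calls wherever they were tested. Siglech was tested in 16 of 20 alternatives and in 5 of 8 fits that left out 1 library. It could not add to the number of rises in the others. With the replicate number as a block, 3682 genes and the same number of enzyme genes, 5, were called, with 11 other pathway genes higher and 4 lower, among which Slc35a2 lost its call (adjusted p = 0.0675) and Mgat2 gained one (0.0406). The numbers are not taken as pairs, since the deviations of same-numbered libraries from their group means correlated at 0.22, 0.35, -0.08 and 0.12, and 4 of 8 libraries correlated best with their own number. Depth was low for St3gal2 (86 to 164 estimated reads per library), St6galnac6 (68 to 109) and Siglech (0 to 167).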

Other observations

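Within the 4 CD103Tg libraries, several of these genes shared an order. St6gal1 was lowest in replicate 1, then 2, 3 and 4, and St3gal1 followed the same order over a much narrower range (14.2 to 14.7 CPM). Cd22, St3gal4, St3gal6, St3gal2 and Cmas had the reverse order, highest in replicate 1 and lowest in replicate 4, although St3gal2 and Cmas did not pass the test between the groups. Ighm, whose transcripts were lower in CD103Tg (304, 349.9, 380.5 and 493 CPM) than in B6 (843, 805, 852 and 763 CPM), had the order of St6gal1. Over all tested genes, 715 (6.22%) had the order of St6gal1 and 812 (7.06%) the reverse. The order was noticed after the values were seen, and with 4 libraries no correlation is given.

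Markers of other cell types were also measured. Over all tested genes, the groups did not overlap, in either direction, in 31%, and 17.4% were called higher. These shares leave out genes whose mean was below 1 CPM, while the counts of analysed markers include them. Of 3 plasma cell markers analysed, 2 were higher in every CD103Tg library, with sums of 3.47 to 27.8 CPM in CD103Tg and 0.41 to 0.75 CPM in B6. The 10 analysed myeloid and dendritic cell markers summed to 90.0 to 183 CPM in CD103Tg and 63.8 to 129 CPM in B6, and Lyz2 ranged from 9.42 to 78.3 CPM in CD103Tg and from 2.42 to 55.0 CPM in B6. Of these 10 markers, Cd68 (2.37 to 5.45 CPM in CD103Tg and 0.87 to 1.87 CPM in B6) and Xcr1 (4.17 to 5.49 CPM in CD103Tg and 2.18 to 4.06 CPM in B6) were higher in every CD103Tg library, and 3 of the 6 tested passed as higher. The 5 natural killer cell markers summed to 314 to 394 CPM in CD103Tg and 163 to 190 CPM in B6. Nearly all of the sum came from Eomes, which memory CD8 T cells also express. Of 4 tested, Eomes, Klrb1c and Tyrobp were called higher and Fcer1g did not pass. Klrb1c was at 5.14 to 8.93 CPM in CD103Tg and 2.91 to 4.10 CPM in B6. Tyrobp overlapped, at 2.93 to 6.20 CPM in CD103Tg and 1.21 to 3.51 CPM in B6. Of the CD4 T cell markers only Zbtb7b was analysed, at 0.11 to 0.41 CPM in CD103Tg and 0.41 to 1.43 CPM in B6.

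A Dixon test of each of the 10 genes in each group of 4 libraries found no outlying library.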
